A study of Mus musculus with 79 samples.

Results

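Cubn, Amn, Lrp2, Dab2, Ttr, Apoe, Apoa1 and Pdgfra encode endocytic receptors, their adaptor, secreted carriers and a growth factor receptor, a set associated with visceral endoderm. The 8 genes were chosen by symbol, with earlier results of these data known. They are 8 of 19445 genes with reads in a time course of wild-type cells, 8 of 19403 in a time course of 3 clones, and 8 of 21023 in a line with a degradable cohesin subunit, where the same transcript identifiers were taken. All of the samples were mouse embryonic stem cells, untreated or treated with 1 µM retinoic acid (a vitamin A derivative that starts differentiation), with auxin, or with both.

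Visceral endoderm is the absorptive epithelium around the early mouse embryo. At its apical surface, cubilin (Cubn) and megalin (Lrp2) bind carrier proteins, vitamins and lipoproteins; cubilin has no membrane-spanning part and needs amnionless (Amn) to reach the surface, and the clathrin adaptor Dab2 helps to take the receptors into the cell. The same epithelium secretes transthyretin (Ttr, a carrier of thyroid hormone) and the apolipoproteins E and A-I (Apoe, Apoa1), while the receptor tyrosine kinase Pdgfra is made in extraembryonic endoderm and in mesenchyme.

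The wild-type E14 cells gave 25 libraries of total RNA: 2 untreated libraries (0 h, replicates 3 and 4), 4 each at 2, 4, 6, 48 and 72 h of retinoic acid, and 3 at 24 h (replicates 1, 3 and 4). The last time is 72 h in the sample titles and 74 h in the sample characteristics, and 72 h is used here. The SCC1-mAID line (genotype E14;Rosa26::Tir1;Scc1-mAID-eGFP) carries an auxin-degradable cohesin subunit and gave 12 libraries of nuclear RNA, 3 each untreated, with retinoic acid for 4 h, with 500 µM auxin for 6 h, and with auxin for 6 h and retinoic acid for the last 4 h of it. The clones gave 42 libraries of nuclear RNA, 2 for each clone and time (0 h, 2 h, 4 h, 6 h, 24 h, 48 h or 74 h): G4 kept a transient enhancer of the Hoxb locus (E14;HoxTransEwt), and E3 and H12 lack it (E14;HoxTransEdel). Each genotype of this set rests on 1 clone (G4) or 2 clones (E3, H12), all cells were grown in serum with leukemia inhibitory factor on gelatin, and the deletion and the degradation of the cohesin protein are not read out by any of these genes' transcripts.

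Cubn, Dab2 and Pdgfra moved together and Amn, the partner of cubilin, did not in E14, so their upstream sequences are shown side by side. These are the 250 bases before the start site that RefSeq gives on build GRCm38.p6, on the gene's own strand, for Cubn (chr2:13491877-13492126, minus strand), Dab2 (chr15:6386498-6386747, plus strand) and Pdgfra (chr5:75152001-75152250, plus strand), which rose with retinoic acid in every line followed to the last time, and for Amn (chr12:111270846-111271095, plus strand), which in E14 did not pass the test. Capitals mark any match, on either strand, to a short form of a factor's site: GATAA for GATA factors, AGGTCA for nuclear receptors, ACAAT for SOX factors, TGTTTAC for FOX factors, GTTAAT for some homeodomain factors, or the DR5 repeat of the nuclear receptor motif that retinoic acid receptors bind.
Cubn: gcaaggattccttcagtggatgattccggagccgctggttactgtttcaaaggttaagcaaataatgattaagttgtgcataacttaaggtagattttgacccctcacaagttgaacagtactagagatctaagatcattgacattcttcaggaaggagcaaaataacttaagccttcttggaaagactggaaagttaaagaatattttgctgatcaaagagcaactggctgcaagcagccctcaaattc
Dab2: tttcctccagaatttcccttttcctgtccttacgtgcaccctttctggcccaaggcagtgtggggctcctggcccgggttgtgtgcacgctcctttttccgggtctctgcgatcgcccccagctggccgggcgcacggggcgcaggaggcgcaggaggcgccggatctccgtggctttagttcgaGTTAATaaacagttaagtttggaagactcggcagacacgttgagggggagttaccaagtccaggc
Pdgfra: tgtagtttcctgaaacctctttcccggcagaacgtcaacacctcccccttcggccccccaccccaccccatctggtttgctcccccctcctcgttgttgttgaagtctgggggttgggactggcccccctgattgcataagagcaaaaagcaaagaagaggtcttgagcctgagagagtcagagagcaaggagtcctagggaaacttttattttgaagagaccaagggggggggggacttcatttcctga
Amn: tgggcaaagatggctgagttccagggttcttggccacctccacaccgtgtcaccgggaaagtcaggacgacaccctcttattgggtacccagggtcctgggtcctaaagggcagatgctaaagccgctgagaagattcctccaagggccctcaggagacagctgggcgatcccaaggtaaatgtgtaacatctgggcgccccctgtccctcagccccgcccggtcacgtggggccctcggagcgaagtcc
The 4 windows held 1 match in all, a GTTAAT in the Dab2 window whose first base lies 65 bases before the start, on the gene's strand; 6.44% of all 32817 windows of this length hold that motif. The shares of windows with the others were 22.6% for GATAA, 14% for AGGTCA, 27.7% for ACAAT, 3.16% for TGTTTAC and 0.00914% for the DR5 repeat, which contains AGGTCA. Each gene is shown at 1 start only. The Pdgfra transcript counted in E14 starts downstream of the start shown, at 75156166. The Dab2 transcript counted in SCC1-mAID and the clones starts upstream of it, at 6299789. The bases before those other starts are not shown. The 4 windows shown differ in base composition: 39.6% of bases were G or C with 2 CpG dinucleotides at Cubn, 54.4% with 4 at Pdgfra, 60% with 17 at Dab2 and 61.2% with 11 at Amn, against medians of 52.4% and 6 over all windows.

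Reads assigned to genes ranged from 2351105 to 21078996 per E14 library, from 3126025 to 7497894 per SCC1-mAID library and from 4753860 to 10448512 per clone library. Values are given below as CPM (reads of a gene relative to its library's total), after scaling for library composition, within 1 set of libraries at a time. Changes were tested with edgeR's quasi-likelihood test, adjusted with the Benjamini-Hochberg method over all genes tested in a set (15061 in E14, 14015 in SCC1-mAID, 15896 in the clones), and a gene is said to have risen or fallen where the adjusted p was below 0.05. In E14, 7 of the 8 genes passed the filter on low counts; Apoa1 did not pass in any set, Ttr did not pass in SCC1-mAID, and Ttr passed in the other sets only through the late groups in which it was highest. Since the RNA came from whole cultures, fewer cells of a type and less RNA per cell cannot be told apart.

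In E14, the genes lay far apart in level per length, here as FPKM (fragments per kilobase of transcript, scaled to library size) as the authors deposited them. At 0 h, Apoe stood at 348.3 ± 0.155 FPKM (SD, n = 2), Lrp2 at 19.0 ± 1.11, Amn at 1.33 ± 0.0724, Dab2 at 0.809 ± 0.0581, Pdgfra at 0.251 ± 0.00652 and Cubn at 0.232 ± 0.0111. No neighbours in that order overlapped, but each value rests on 2 libraries. The megalin transcript was thus abundant in untreated cells, whereas its partner cubilin was near the bottom of the set. By 72 h the order had become Apoe (146.7 ± 48.7, n = 4), Lrp2 (26.0 ± 7.19), Cubn (15.4 ± 9.01), Dab2 (13.6 ± 3.42), Pdgfra (7.85 ± 1.80), Amn (2.15 ± 1.49), Ttr (0.825 ± 0.458) and Apoa1 (0.0535 ± 0.107). The libraries of Lrp2 and Cubn, of Cubn and Dab2, of Dab2 and Pdgfra, and of Amn and Ttr overlapped, so those neighbours were not separated beyond their spread.

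**Figure D1:**
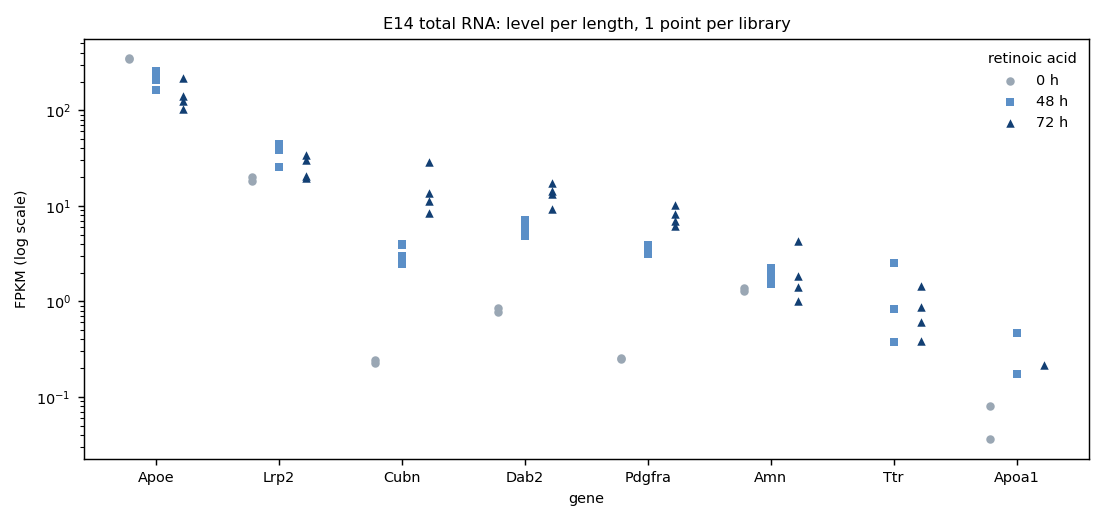
Level per length of the 8 genes in the E14 libraries, as FPKM on a log scale, with 1 point per library at the times given in the legend; values of 0 cannot be drawn on this axis. Cubn climbs from the level of Pdgfra and below Amn at 0 h to the range of Dab2 and Lrp2 at 72 h, while Amn stays between 1.00 and 4.32 FPKM at 72 h.

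Among the 3 receptor genes, cubilin changed most. Cubn (chromosome 2, 13276338 to 13491876, mm10) stood at 4.85 and 4.58 CPM at 0 h, at 12.1, 5.04 and 4.1 at 24 h, at 78.9, 70.5, 52.0 and 56.5 at 48 h, and at 450.8, 162.2, 218.8 and 175.1 at 72 h. All 48 h and 72 h libraries were above all earlier ones, the 24 h libraries overlapped those at 0 h, and replicate 1 was the highest library at 24, 48 and 72 h. The change against 0 h was 0.63 ± 0.54 (log2, ± SE) at 24 h (adjusted p = 0.419), 3.77 ± 0.47 at 48 h (1.61e-06) and 5.74 ± 0.50 at 72 h (1.15e-08), about 53.3-fold. The rise was thus mainly after 24 h: 48 h exceeded 24 h by 3.14 ± 0.44 (7.46e-05) and 72 h exceeded 48 h by a further 1.97 ± 0.32 (6.58e-04). At 24 h the estimate against 0 h was -0.02 without replicate 1 of 24 h; at 72 h it stayed between 5.31 and 5.92 when any 1 library of the 2 groups was left out.

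Amn (chromosome 12, 111271111 to 111276426), the membrane anchor that cubilin needs, did not pass the test at any time in E14. Its libraries read 3.84 and 4.19 CPM at 0 h and 10.2, 5.36, 2.41 and 3.27 at 72 h, so the groups overlapped. The change at 72 h was 0.40 ± 0.32 (adjusted p = 0.289), and -0.11 without replicate 1 of 72 h. The difference between the responses of Cubn and Amn was not tested.

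Megalin rose to 48 h and then fell. Lrp2 (chromosome 2, 69424335 to 69586067) stood at 547.5 and 509.3 CPM at 0 h, at 695.9, 983.0, 1276.9 and 995.6 at 48 h, and at 658.5, 536.1, 740.3 and 417.2 at 72 h. Every 48 h library was above both 0 h libraries, while the 72 h libraries lay on both sides of them. Lrp2 rose by 0.90 ± 0.21 (log2) at 48 h (adjusted p = 8.67e-04), fell by 0.75 on the log2 scale (SE 0.17) from 48 to 72 h (0.00582), and at 72 h differed from 0 h by 0.16 ± 0.21 (0.53).

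Dab2 (chromosome 15, 6386748 to 6440709), the adaptor, had risen by 24 h, a time at which cubilin did not pass the test. It stood at 6.86 and 6.26 CPM at 0 h, at 16.2, 17.4 and 24.0 at 24 h, at 38.6, 46.5, 43.8 and 54.2 at 48 h, and at 110.4, 71.3, 92.1 and 83.0 at 72 h. From 24 h on the groups of successive times did not overlap. The rise against 0 h was 1.54 ± 0.38 at 24 h (adjusted p = 0.00478), 2.80 ± 0.37 at 48 h (1.72e-06) and 3.76 ± 0.38 at 72 h (2.87e-08). Without replicate 4 of 0 h the 24 h change was 1.47 with an adjusted p of 0.0585; no library decided the calls at 48 and 72 h.

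Among the carriers, Apoe fell, Ttr appeared in a few reads and Apoa1 was barely detected. Apoe (chromosome 7, 19696244 to 19699188), the most abundant gene of the set per length, went from 836.1 and 844.3 CPM at 0 h through 485.8, 524.3, 646.0 and 370.9 at 48 h to 403.9, 326.6, 240.2 and 192.7 at 72 h. All 48 h and 72 h libraries were below both 0 h libraries. The change was -0.73 ± 0.21 (log2) at 48 h (adjusted p = 0.00468) and -1.53 ± 0.21 at 72 h (9.42e-07). Ttr had 0 reads in both libraries at 0 h and in every library at 4 and 6 h, then 0, 2, 6 and 13 reads at 48 h and 2, 4, 5 and 6 at 72 h. Set against a floor of 3 reads over the 0 h group, the pooled level was 22.7 times the floor at 48 h and 17.3 times at 72 h. The floor bounds only the 0 h side. At 48 h, 1 library was still at 0 and 1 held 13 of the 21 reads, so that value rests largely on 1 library. No p is given for Ttr, since it entered the test only through its late groups. Apoa1 (chromosome 9, 46228630 to 46230469) had 25 reads in all, in 14 of the 25 libraries, and never more than 3 in a library.

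Pdgfra (chromosome 5, 75156166 to 75198204 for the transcript counted in E14), the growth factor receptor, had also risen by 24 h. Its values were 2.9 and 3.04 CPM at 0 h, 20.8, 11.3 and 10.7 at 24 h, 38.6, 40.6, 40.0 and 34.4 at 48 h, and 93.4, 68.2, 64.4 and 75.3 at 72 h. From 24 h on the groups of successive times did not overlap. The rise was 2.28 ± 0.35 at 24 h (adjusted p = 5.23e-05), 3.69 ± 0.34 at 48 h (5.46e-09) and 4.66 ± 0.35 at 72 h (1.05e-10). The microRNA gene Mir7025 lies inside Pdgfra on the same strand and had 29 reads against 2051 for Pdgfra over the E14 libraries.

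Counted over the 6 genes tested other than Ttr, 0 passed at 2 h, where 0.471% of all genes tested did, 0 at 4 h (2.42%) and 0 at 6 h (3.88%). At an unadjusted p below 0.05 the number was also 0 at each of these times, and DESeq2, limma-trend and limma on the deposited values called 0 as well. At 24 h 2 of 6 passed, both upward (27.7% of all genes), at 48 h 5 of 6 passed (55.9%), with Apoe the 1 that fell, and at 72 h 3 rose, where 30% of all genes did, and 1 fell (29.9% of all genes, 59.9% in either direction). Between successive times, 3 of 6 passed for 24 h against 6 h (23.7% of all genes), 3 for 48 h against 24 h (22.6%) and 5 for 72 h against 48 h (12.4%). Without replicate 4 of 24 h the first of these counts was 1. Lrp2 lost its call there also without replicate 3 of 24 h or any 1 library of 6 h (adjusted p from 0.0519 to 0.148). With limma-trend it was not called either (0.0522). For 72 h against 48 h, the Dab2 call was lost without replicate 1 or 3 of either time. It was also lost without replicate 4 of 72 h (0.0502 to 0.0708 over these cases). Apoe lost its call for 72 h against 48 h with only the compared groups (0.076). At 48 and 72 h most genes tested changed, so the members' count by itself does not set them apart. The medians over the 6 members with reads in every group were 0.58, 1.85 and 2.08 on the log2 scale at 24, 48 and 72 h. The median over all genes was near 0, where the scaling for library composition tends to put it. The members were chosen with earlier results known, so their medians carry no test. These comparisons share their 0 h libraries. In the authors' deposited table, Cubn, Dab2 and Pdgfra are classed as induced, Apoe as downregulated, Lrp2 as stablish, Amn as stably_active, and Ttr and Apoa1 as stably_inactive.

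**Figure D2:**
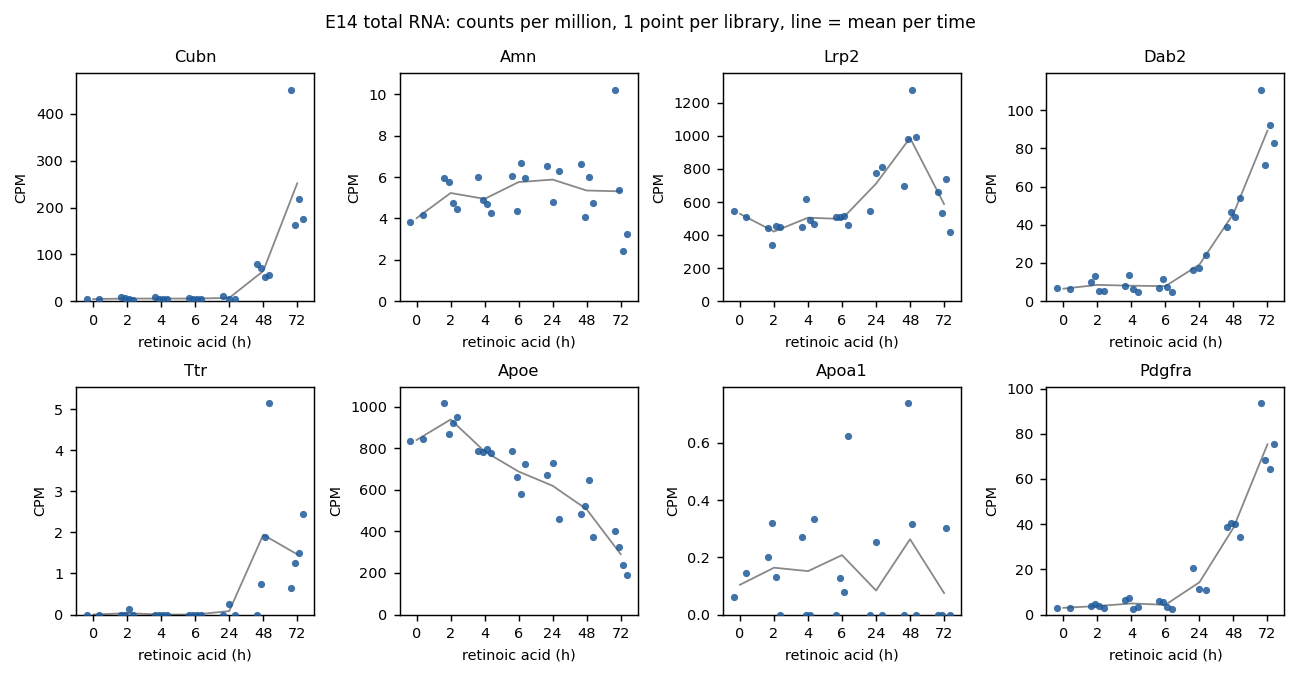
CPM of the 8 genes over time in E14, with 1 point per library and the group means joined; Apoa1 was not tested. Dab2 and Pdgfra leave their 0 h level at 24 h and Cubn at 48 h, Lrp2 peaks at 48 h, and Apoe falls from 836.1 and 844.3 CPM at 0 h to between 192.7 and 403.9 at 72 h.

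Across the 25 E14 libraries, the log2 levels of Dab2 and Pdgfra had a Pearson correlation of 0.97, those of Cubn and Pdgfra 0.936 and those of Cubn and Dab2 0.929, whereas Cubn and Amn stood at -0.011. These describe libraries that share the time course and therefore carry no test. Among 12563 genes with a mean of at least 5 CPM at any time, those most like Cubn were Idh2 (0.97), Hoxc9 (0.967) and Tmem132c (0.964), those most like Dab2 included Grb10 (0.981) and Usp3 (0.977), and those most like Pdgfra were Flrt3 (0.98), Crtc3 (0.977) and Man2a2 (0.973). The genes nearest Lrp2 and Amn were less like them, with 0.908 (Sfrp5) and 0.686 (Cdc42ep3) as the highest values, and Apoe was matched best by Syngr1 (0.972).

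The name visceral endoderm was checked against marker genes, none of them a member, and in E14 they did not rise as a group. Of all genes tested in E14, 30% rose and 29.9% fell at 72 h. Of 6 visceral endoderm markers tested (of 8), 2 rose and 3 fell at 72 h, with a median of -0.37: Ihh, a signal of that epithelium, rose by 3.03 ± 0.57 and the markers Spink1 and Soat2 changed by -4.54 ± 0.36 and -2.52 ± 0.41. Their summed level went from 92.5 to 92.6 CPM at 0 h to 27.4 to 45.9 at 72 h. Most of it at 0 h was Rhox5 (60.9 to 61.9 CPM) and Spink1 (21.8 to 21.9), so the fall mainly reports those genes. At 72 h they stood at 18.7 to 30.8 and 0.301 to 1.64 CPM. Cer1 had 0 reads. Afp, a marker of the tissue, stood at 0.0964 to 0.189 CPM at 0 h and 0.301 to 0.655 at 72 h, on 5 reads each. The genes are therefore called here by their own names. Of 7 endoderm transcription factors, 6 rose, among them Sox17 (5.86 ± 0.54) and Foxa2 (5.44 ± 0.60). Of 10 parietal endoderm markers 7 rose and 1 fell, of 9 mesenchyme markers 8 rose, for example Prrx1 (5.39), and of 7 neural progenitor markers 6 rose, for example Zic1 (6.31). Pdgfra is also made in mesenchyme and Lrp2 in neural epithelium, and the part of such cells in the members' values was not tested. Of 4 definitive endoderm markers tested 3 rose and 1 fell, of 4 choroid plexus markers 2 rose and 2 fell, and of 6 pluripotency genes 5 fell, for example Pou5f1 (-2.96). No hepatocyte marker passed the filter, and of 6 macrophage markers the 1 tested, Cd68, fell by 2.37 on the log2 scale.

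Other genes of the same uptake and receptor systems gave a mixed picture in E14 at 72 h. Of 16 partners in endocytosis, 10 rose and 3 fell (median 0.41), with Myo6, a motor of endocytic vesicles, at 1.84 ± 0.18, Clcn5, an endosomal chloride transporter, at 1.53 ± 0.28, and Fcgrt, the neonatal Fc receptor, at -1.02 ± 0.26. Of 9 tested relatives of megalin in the low density lipoprotein receptor family, 4 rose and 2 fell, with Vldlr at 3.22 ± 0.52, Lrp1 at 2.17 ± 0.28 and Lrp4 at 2.09 ± 0.29. Of 12 other carriers only 6 were tested, of which 2 rose and 1 fell: the retinol carrier Rbp4 at 1.95 ± 0.27, Apob at 1.86 ± 0.28 and Apoc1 at -1.83 ± 0.30. Of 9 tested genes around the PDGF receptors, 3 rose and 3 fell, with the PDGF-activating protease Plat at 4.09 ± 0.65 and the second receptor Pdgfrb at 2.69 ± 0.36. The median over all genes tested was -0.01 in this comparison, and 30% of them rose and 29.9% fell. The counts of the carriers, the megalin relatives and the PDGF genes therefore do not by themselves set those lists apart.

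In the SCC1-mAID line, 4 h of retinoic acid or 6 h of auxin left no detectable change in any of the 6 members tested. The count of members called was 0 for retinoic acid against untreated (2.53% of all genes called), for auxin against untreated (0.278%), for auxin with retinoic acid against auxin (2.67%) and against retinoic acid alone (0.392%), and for the difference in response with auxin (0.0%). At an unadjusted p below 0.05 the number was 0 in each, and DESeq2 and both limma fits also called 0. The estimates lay between -0.30 and 0.15 (log2) for retinoic acid, between -0.35 and 0.46 for auxin, between 0.04 and 0.51 for retinoic acid on top of auxin and between -0.01 and 0.69 for the difference; these comparisons share libraries.

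Cubn read 46.2, 44.1 and 20.7 CPM untreated, 43.9, 28.8 and 18.4 with retinoic acid, 40.0, 34.4 and 18.5 with auxin, and 63.5, 39.4 and 15.2 with both. The groups overlapped throughout, and replicate 3 was the lowest library in each of the 4 groups. Apoe stood at 673.2, 627.5 and 698.0 CPM untreated and at 562.8, 546.8 and 610.2 with retinoic acid, groups that did not overlap, with a change of -0.22 ± 0.18 (adjusted p = 0.759). Amn was the 1 member with a call that a library decided: it differed between auxin with retinoic acid and auxin alone by 0.51 ± 0.40 (0.574), and without auxin replicate 1, its highest auxin library at 11.8 CPM, by 1.17 (0.0496). Ttr had 2 reads and Apoa1 5 reads over the 12 libraries.

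In the clones, H12 stood apart from the other 2 for Cubn, most clearly from 24 h on. In G4, with the enhancer, Cubn stood at 17 and 17.9 CPM at 0 h, 27.4 and 41.3 at 24 h, 50.7 and 104.0 at 48 h and 80.0 and 209.7 at 74 h. In E3, without it, the values were 17.6 and 13.7, 16.9 and 22.8, 32.8 and 52.0, and 65.2 and 155.0 at the same times. In H12, also without it, they were 19.6 and 40.9, 66.1 and 74.6, 728.9 and 486.7, and 1772.9 and 1304.0. At 0, 24, 48 and 74 h both H12 libraries were above every library of G4 and E3, narrowly at 0 h, and G4 and E3 overlapped each other at 48 and 74 h. Cubn rose by 3.04 ± 0.46 (log2) from 0 to 74 h in G4 (adjusted p = 2.74e-06), by 2.82 ± 0.46 in E3 (9.89e-06) and by 5.68 ± 0.49 in H12 (2.19e-10).

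Pdgfra followed the same pattern. At 0 h it stood at 3.72 and 4.19 CPM in G4, 4.71 and 4.56 in E3 and 4.74 and 8.11 in H12, at 24 h at 6.33 and 9.67, 7.53 and 11.6, and 20.6 and 23.6, and at 74 h at 31.9 and 36.5, 42.3 and 53.8, and 330.2 and 299.2. All 3 clones were higher at 74 h than at 0 h in both libraries, and at 24 and 74 h both H12 libraries stood above every library of G4 and E3. The rise was 3.10 ± 0.31 in G4 (adjusted p = 6.08e-10), 3.37 ± 0.30 in E3 (7.70e-11) and 5.64 ± 0.30 in H12 (9.88e-16).

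Dab2 stood at 16.5 and 17 CPM at 0 h and 89.6 and 134.3 at 74 h in G4, at 12.3 and 12.9 and then 71.1 and 79.8 in E3, and at 7.94 and 11.8 and then 255.0 and 222.8 in H12. H12 was thus the lowest clone at 0 h and the highest at 74 h. At 24 h it was still the lowest, at 28.3 to 29.9 CPM against 40.9 to 46.8 in G4 and 31.6 to 35.8 in E3. The rise was 2.73 ± 0.21 in G4 (adjusted p = 1.17e-12), 2.59 ± 0.21 in E3 (1.01e-11) and 4.61 ± 0.23 in H12 (1.20e-16).

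For Lrp2 the clones differed in the shape of the time course. In G4 it stood at 966.4 and 672.1 CPM at 0 h, 1762.4 and 1232.5 at 24 h, 1610.9 and 1403.1 at 48 h and 924.1 and 788.0 at 74 h. In H12 the values were 448.3 and 428.2, 819.8 and 933.8, 1463.8 and 1413.6, and 1735.7 and 1961.9. In G4 the level at the last time lay within the range at 0 h, whereas in H12 both libraries at 74 h were above all earlier ones. The change from 0 to 74 h was 0.06 ± 0.27 in G4 (adjusted p = 0.858; -0.19 without replicate 2 of 0 h and -0.03 without replicate 1 of 74 h), 0.60 ± 0.27 in E3 (0.0622) and 2.08 ± 0.28 in H12 (3.15e-07). In E3 the call depended on the library and the method: without replicate 1 of 0 h the change was 0.97 (0.0176), and with all libraries limma-trend (0.0479), limma on the deposited value (0.0499), DESeq2 (0.0429), edgeR on the compared groups alone (0.0293) and edgeR with a replicate block (0.00671) called it.

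**Figure D3:**
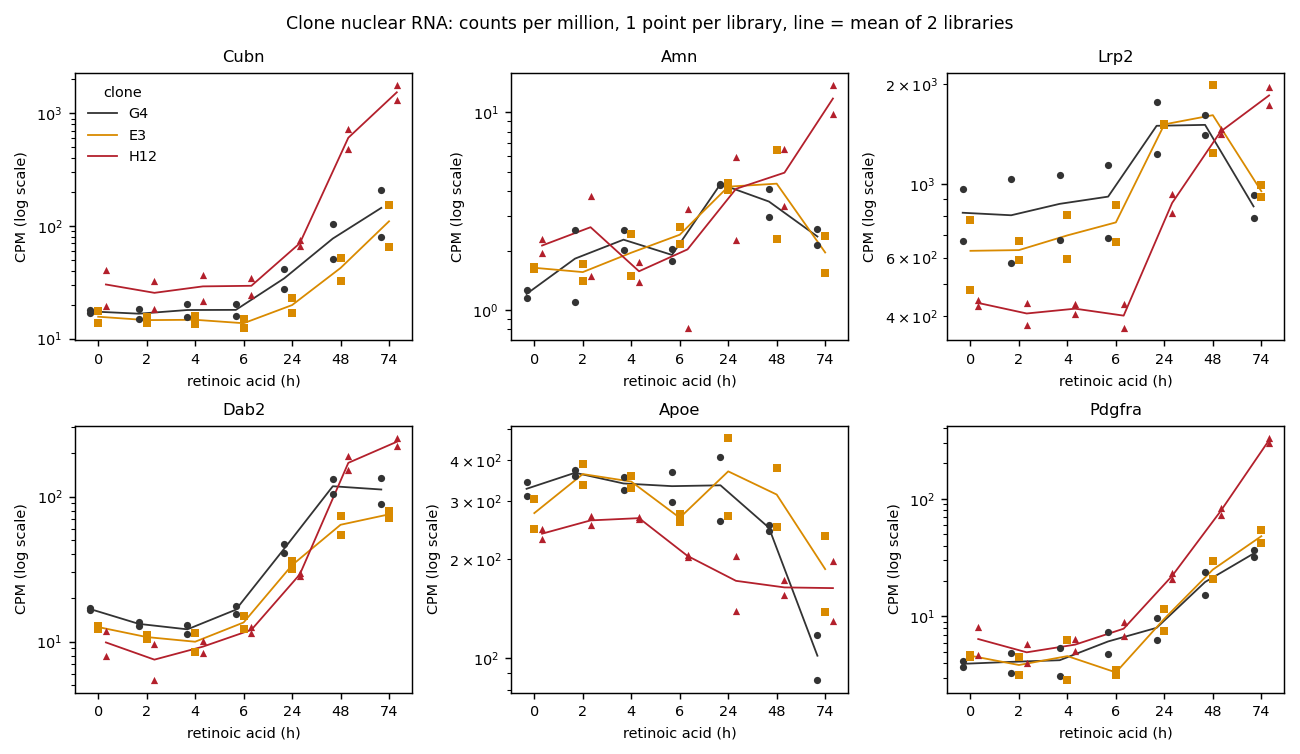
CPM of the tested genes other than Ttr over time in the 3 clones, with 1 point per library and lines through the means of the 2 libraries. For Cubn, Pdgfra, Dab2 and Lrp2 the H12 libraries at 74 h lie above those of G4 and E3, for example 330.2 and 299.2 CPM of Pdgfra against at most 53.8.

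Amn, which passed no test in E14, passed at 24 and 48 h in G4 and E3 and at 48 and 74 h in H12. It went from 1.15 and 1.27 CPM at 0 h to 4.32 and 4.37 at 24 h and 2.13 and 2.59 at 74 h in G4, from 1.62 and 1.66 through 4.04 and 4.39 to 1.55 and 2.37 in E3, and from 2.3 and 1.95 through 2.27 and 5.95 to 13.7 and 9.81 in H12. In G4 all later values shown were above 0 h, with the higher ones at 24 h, and in H12 the 74 h libraries were the highest. The change at 24 h was 1.83 ± 0.54 in G4 (adjusted p = 0.0105; 0.0621 without replicate 1 and 0.0587 without replicate 2 of 0 h). In E3 it was 1.35 at 24 h (0.0457, lost without any 1 of the 4 libraries, at 0.0977 to 0.154) and 1.35 at 48 h (0.0296, lost without replicate 1 or 2 of 0 h or replicate 1 of 48 h, at 0.108, 0.0958 and 0.529). In H12 it was 1.18 at 48 h (0.041, lost without replicate 1 or 2 of 0 h or replicate 2 of 48 h, at 0.108, 0.154 and 0.364). Neither limma fit called any of these 3 changes. In G4 at 48 h the change was 1.51 (adjusted p = 0.0215), and 1.31 to 1.78 with 1 library left out, not always with a call. At 74 h it was 0.94 ± 0.58 in G4 (0.17), 0.28 ± 0.57 in E3 (0.697; -0.06 without replicate 2 of 74 h) and 2.45 ± 0.46 in H12 (3.72e-05). The values rest on few reads, 909 over all 42 libraries.

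Apoe fell in G4 from 344.2 and 311.0 CPM to 117.7 and 85.4 at 74 h, and stood at 304.6 and 247.9 and then 138.1 and 234.8 in E3, and at 247.6 and 230.6 and then 197.1 and 129.3 in H12. In every clone both 74 h libraries were below both 0 h libraries. The change was -1.69 ± 0.26 in G4 (adjusted p = 1.86e-06), -0.56 ± 0.25 in E3 (0.0538) and -0.55 ± 0.25 in H12 (0.0579). Leaving out replicate 2 of 74 h in E3 gave -0.98 (0.00637), and leaving out replicate 1 of 74 h in H12 gave -0.87 (0.0205), and with all libraries limma-trend (0.0386 in E3, 0.0458 in H12) and edgeR on the compared groups alone (0.0432 and 0.0313) called both, as did limma on the deposited value (0.0395) and DESeq2 (0.0441) for E3.

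Ttr had 0 reads at 0 h in all 3 clones. At 74 h the pairs of libraries held 6 and 3 reads in G4, 11 and 24 in E3, and 57 and 42 in H12 (0.671 and 0.431, 1.7 and 2.84, and 8.7 and 5.89 CPM). The H12 libraries were the highest, those of E3 next, and no clones overlapped. Against the floor of 3 reads over the 0 h pair, the pooled level was 2.96 times the floor in G4, 11.5 times in E3 and 33.7 times in H12. Here too the floor bounds only the 0 h side. Apoa1 had 52 reads in 29 of the 42 libraries and at most 3 in any.

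Of the 6 genes tested in the clones other than Ttr, 4 passed at 74 h against 0 h in G4 (56.3% of all genes passed), 3 in E3 (56.2%) and 5 in H12 (59.4%). Cubn, Dab2 and Pdgfra rose in all 3, Apoe fell in G4, and Lrp2 and Amn rose in H12. At 48 h the counts were 5 in each clone, against 49.5% of all genes in G4, 52.1% in E3 and 53.2% in H12, and at 24 h they were 4 in each, against 29.7%, 31.8% and 34.5%. The counts at 24 h rested on single libraries: in G4 it was 2 without replicate 1 and 1 without replicate 2 of 0 h, and in E3 it was 2 without replicate 1 of 0 h, replicate 2 of 0 h or replicate 2 of 24 h. The counts at 48 h, and that of H12 at 24 h, also rested partly on single libraries. With 1 library left out, the 48 h change ranged from 1.09 to 1.76 for Cubn in E3 and from 0.64 to 1.19 for Lrp2 in G4. For Amn at 48 h it ranged from 1.31 to 1.78 in G4, 0.52 to 1.99 in E3 and 0.67 to 1.64 in H12. Cubn at 24 h in H12 ranged from 0.78 to 1.85. Over the 6 members with reads in every group the median at 74 h was 1.84 in G4, 1.60 in E3 and 3.53 in H12, with all genes near 0 under the same scaling. The calls of Cubn, Dab2 and Pdgfra at 74 h held when any 1 library was left out.

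The direct comparison at 74 h found the 6 members other than Ttr higher in H12 than in G4. The difference was 3.41 ± 0.43 (log2) for Cubn (adjusted p = 1.76e-06), 3.20 ± 0.25 for Pdgfra (1.48e-10), 2.32 ± 0.45 for Amn (2.71e-04), 1.11 ± 0.27 for Lrp2 (0.0034), 1.10 ± 0.19 for Dab2 (4.92e-05) and 0.68 ± 0.25 for Apoe (0.0468). That is 6 of 6, where 25.1% of all genes were called and 12.4% were higher in H12. Without replicate 2 of G4 at 74 h Lrp2 gave 1.01 (0.0667) and Apoe 0.48 (0.371), and without replicate 1 of H12 at 74 h Apoe gave 0.37 (0.449).

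The other deletion clone differed from G4 in fewer members. E3 differed from G4 at 74 h in Apoe (0.88 ± 0.25, adjusted p = 0.0407), 1 of 6 members where 4.43% of all genes were called. Cubn differed by -0.38 ± 0.40 (0.698), Dab2 by -0.57 ± 0.19 (0.0827, but called with a replicate block, at -0.56 and 0.0442), Pdgfra by 0.50 ± 0.25 (0.304) and Lrp2 by 0.15. These values depended on single libraries: Cubn gave 0.45 without replicate 2 of G4 and 0.09 without replicate 1 of E3, Dab2 gave -0.83 (0.018) without replicate 1 of G4, and Apoe lost its call without replicate 2 of either clone (0.65, 0.618, and 0.44, 0.648). E3 and H12, which carry the same labelled deletion, differed at 74 h in 5 of 6 members (7.81% of all genes called), each lower in E3: Cubn by -3.80 ± 0.44 (9.88e-07), Pdgfra by -2.71 ± 0.25 (3.33e-09), Amn by -2.55 ± 0.46 (3.16e-04), Dab2 by -1.66 ± 0.19 (1.98e-07) and Lrp2 by -0.96 ± 0.27 (0.0255). The Lrp2 call was lost without any 1 of the 4 libraries (adjusted p from 0.0644 to 0.203).

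Before treatment the clones were closer. H12 was lower than G4 at 0 h in Dab2 (-0.78 ± 0.23, adjusted p = 0.0246) and Lrp2 (-0.90 ± 0.27, 0.0268), 2 of 6 members where 12% of all genes were called, while Cubn differed by 0.78 ± 0.46 (0.348). Leaving out a library lost at least 1 of these calls in each case: replicate 1 of G4 (Dab2 0.123, Lrp2 0.383), replicate 2 of G4 (Dab2 0.0783), replicate 1 of H12 (Dab2 0.345, Lrp2 0.127) and replicate 2 of H12 (Lrp2 0.167). E3 differed from G4 in 0 members (0.466% of all genes called) and from H12 in 0 (10.8%), with 0 at an unadjusted p below 0.05 in edgeR and 0 by DESeq2 and both limma fits.

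The difference in the response from 0 to 74 h was therefore tested directly. The rise in H12 exceeded that in G4 by 2.64 ± 0.62 for Cubn (adjusted p = 0.00549), 2.53 ± 0.44 for Pdgfra (2.20e-04), 2.01 ± 0.39 for Lrp2 (7.01e-04) and 1.87 ± 0.30 for Dab2 (6.10e-05), and Apoe fell less, by 1.14 ± 0.35 (0.0328). That is 5 of 6 members where 12.4% of all genes were called and 7.64% in this direction; Amn gave 1.51 ± 0.77 (0.202). With any 1 of the 8 libraries left out, Cubn stayed between 2.06 and 3.49, Pdgfra between 2.21 and 2.99, Lrp2 between 1.73 and 2.29 and Dab2 between 1.57 and 2.22, all still called, whereas Apoe lost its call in 5 of the 8 cases, without replicate 1 or 2 of H12 at 0 h, replicate 1 of H12 at 74 h, replicate 1 of G4 at 0 h or replicate 2 of G4 at 74 h (adjusted p from 0.0626 to 0.193). Between E3 and G4 no member differed in response (0.579% of all genes called; 1 member, Apoe, at an unadjusted p below 0.05, with 1.12 ± 0.35 and an adjusted p of 0.139; 0 by DESeq2 and by both limma fits). Between E3 and H12 4 members did (4.41% of all genes called), Cubn by -2.87 ± 0.63 (0.00583), Pdgfra by -2.27 ± 0.44 (0.00123), Dab2 by -2.02 ± 0.31 (4.96e-05) and Lrp2 by -1.48 ± 0.38 (0.0204), and these share the H12 libraries with the comparison before. The Lrp2 call was lost in 6 of the 8 cases with a library left out, all but replicate 2 of E3 at 0 h and replicate 1 of H12 at 74 h (adjusted p from 0.0584 to 0.171), and the Cubn call with only the compared groups (0.0576).

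**Figure D4:**
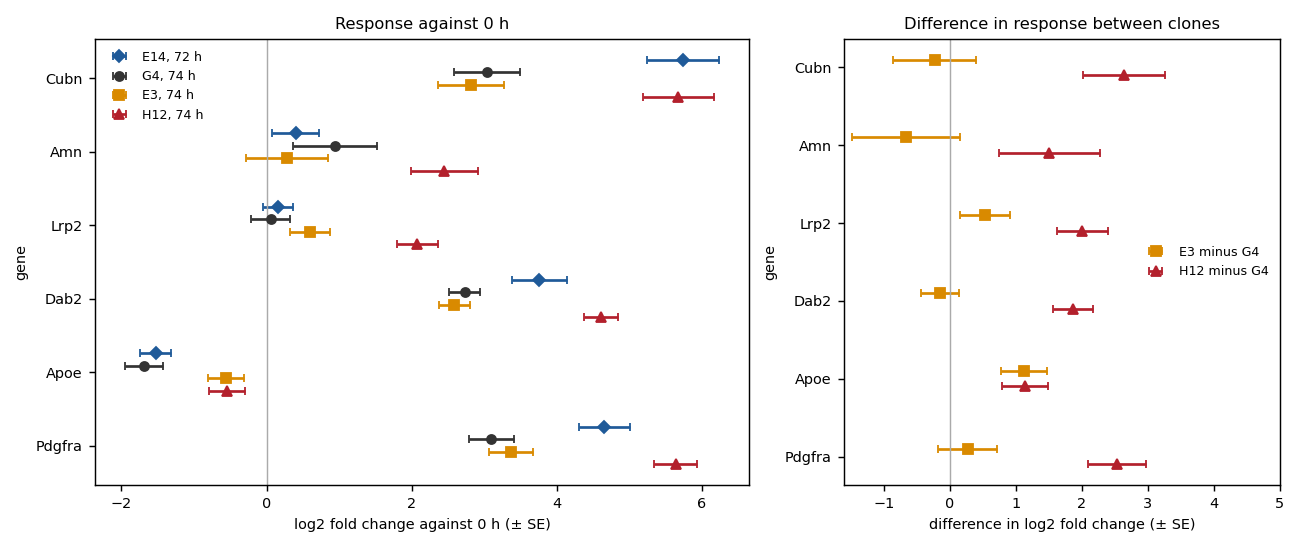
Left, log2 fold change (± SE) from 0 h to 72 h in E14 and to 74 h in the clones; right, the difference in that response between each deletion clone and G4. Cubn, Lrp2, Dab2 and Pdgfra in H12 lie at 2.64, 2.01, 1.87 and 2.53 above G4, while those of E3 lie nearer 0.

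Per kilobase of gene span in nuclear RNA, Apoe was first and Lrp2 second in every clone at 74 h (34.5 and 5.29 CPM per kb in G4, 63.3 and 5.88 in E3, 55.4 and 11.4 in H12). Cubn (7.14) and Pdgfra (6.85) were next in H12, with overlapping libraries, and stood above Amn (2.22). In G4, Pdgfra (0.745) and Cubn (0.672) overlapped, and Amn stood at 0.443. The level of Dab2 depends on the span taken: over the 140.9 kb of the transcript kept it was 1.7 in H12 and 0.794 in G4, and over the 54.0 kb of the shorter transcripts, which hold 15485 of its 15512 reads, it was 4.43 and 2.07, so its place in the order is not given.

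Marker genes of several tissues differed between H12 and G4 at 74 h beside the members. Of all genes tested, 12.4% were higher in H12 and 25.1% differed in either direction. All 7 endoderm factors were higher in H12 (median 2.33), for example Sox17 (2.33 ± 0.33) and Foxa2 (1.58 ± 0.34), and their summed level was 336 to 337 CPM in H12 against 50.8 to 80.5 in G4 and 77.2 to 97.2 in E3. Of 7 visceral endoderm markers tested 6 were higher, with Ihh at 3.48 ± 0.34 and Soat2 at 2.30 ± 0.49, and the summed level was 44.0 to 44.7 CPM against 6.94 to 7.91 in G4. Afp stood at 1.82 to 2.44 CPM in H12 and 0.447 to 0.719 in G4. Of 10 parietal endoderm markers 8 were higher, with Col4a1 at 3.14 ± 0.26, and the summed level was 20690.5 to 23583.2 CPM against 3035.6 to 3537.6. Of 7 neural progenitor markers 5 were lower, with Zic1 at -1.99 ± 0.28, and of 9 mesenchyme markers 4 were higher and 1 lower. Of 6 pluripotency genes 4 were higher and 1 lower (median 1.97), of 4 choroid plexus markers tested 3 were higher, and of 4 definitive endoderm markers 3 were higher and 1 lower. Some lists share genes, and the part of these cells in the members' differences was not tested.

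The members' functional relatives gave mixed results between H12 and G4 at 74 h, where 12.4% of all genes were higher and 25.1% differed in either direction. Of 7 tested carriers 6 were higher, among them Apob (2.54 ± 0.36) and Rbp4 (1.82 ± 0.32). Of 16 endocytic partners 5 were higher and 2 lower, with Myo6 at 0.80 ± 0.15 and Clcn5 at 0.35 ± 0.20 (adjusted p = 0.2). Of 10 tested relatives of megalin 3 were higher and 1 lower, and of 9 genes around the PDGF receptors 3 were higher and 1 lower, with Pdgfrb, the second receptor, at 0.03 ± 0.25 (0.941). Whether the members differ from their partners was not tested.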

How the data were processed

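RNA sequencing of E14 (total RNA), SCC1-mAID and clone cells (nuclear RNA) was used; libraries were depleted of ribosomal RNA and carried Drosophila cells for calibration, per the labels' protocols. Tools named in the submitters' processing notes are STAR, Bowtie2, SAMtools and DESeq2, with builds mm10 and dm6; versions are not given in the sources used here. The deposited values are a signal per transcript, whole reads divided by 1 factor per library; dividing them back gave whole read counts for 100.0% of the deposited values within 0.1 read. In E14 the transcripts of 1 gene differ in reads, while in the nuclear sets those of the same span do not. The E14 table also holds FPKM values deposited by the authors.

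One transcript per gene was kept. Transcripts without a gene name were left out (0.0117%, 0.0083% and 0.0081% of reads in E14, SCC1-mAID and clones). The edgeR quasi-likelihood test (R 4.3.3, edgeR 4.0.16, TMM, filterByExpr, robust fit, all groups of a set in 1 fit) was the main test on the recovered reads, with limma (3.58.1) on log2 of the deposited value plus 1, limma-trend and DESeq2 (1.42.0) as alternatives. Its call threshold was an adjusted p of 0.05 over all genes tested; SE is the log2 change divided by the square root of F, and so approximate. The test was also run on simulated counts with known changes, a result that is not given here. The design text calls the E14 samples biological replicates; for the others, p-values measure the spread between these samples, which may be technical. Replicates differed by more than counting noise. Other alternatives were no filter, the authors' scaling, the longest transcript, the compared groups alone, a replicate block and leaving out each library.

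The members and the gene lists were chosen with earlier results of these data known, and the motif set was widened after the first 2 motifs gave no match in the windows first looked at. Named genes are all members, the 3 genes nearest to each in E14, and the genes of each list with the largest changes at 72 h in E14. Some of the genes that this rule names are not reported here. Promoter windows are from RefSeq (GRCm38.p6); 7 of the 8 members were matched.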

Additional observations from a re-analysis of the deposited data

Results flagged for a closer look

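In the E14 groups of 4 libraries, 4 values stood apart from the other 3 of their group by Dixon's criterion, in 38 group tests of which chance gives about 1 in 20. Lrp2 was low in 1 library at 2 h (342.5 CPM) and in 1 at 6 h (458.9). Ttr at 2 h (0.132) and Apoa1 at 72 h (0.301) were a single library with reads where the others had 0.

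The response from 0 to 74 h differed between clones by edgeR's test of the difference itself. Against G4, H12 differed by 2.64 for Cubn, 2.01 for Lrp2, 1.87 for Dab2, 1.14 for Apoe and 2.53 for Pdgfra (log2). Against H12, E3 differed by -2.87 for Cubn, -1.48 for Lrp2, -2.02 for Dab2 and -2.27 for Pdgfra; both contrasts use the same H12 libraries. The Lrp2 call in the second was lost in 6 of 8 cases with a library left out (adjusted p up to 0.171) and the Cubn call with only the compared groups (0.0576). E3, H12 and G4 are each 1 clone, so in a contrast with G4 the deletion and the clone cannot be told apart. E3 and H12 carry the same labelled deletion, so their contrast compares clones within 1 labelled genotype.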

How the results depend on the processing

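Of the members' changes that were called or are named in the report, recomputed under alternatives that keep every library, 847 values kept their direction and their side of the threshold, 22 lost and 12 gained a call, and none changed sign. The count of members called, Ttr included here, moved by over 1.5 times in 2 comparisons. For H12 against G4 at 0 h it was 1 instead of 2 with only the compared groups. For E3 against G4 at 74 h it was 1 instead of 2 with no filter, with limma-trend, with DESeq2 (which gave Ttr no adjusted p) and with only the compared groups, and 0 with limma on the deposited value. With 1 library left out, 467 kept their direction and their side of the threshold, some of them without a call in the full data. Of the changes called in the full data, 408 kept their call and 77 lost it. A further 5 gained a call and 7 changed sign, all 7 without a call in the full data. With 1 library left in a group, that library was assumed to vary like the others. The counts of members called that moved by over 1.5 times ranged from 1 to 3 (in full 2) for E14 24 h against 0 h, 1 to 3 (in full 3) for E14 24 h against 6 h, 2 to 4 (in full 4) for E3 24 h against 0 h, 0 to 2 (in full 2) for E3 against G4 at 74 h, 1 to 3 (in full 4) for G4 24 h against 0 h, 0 to 1 (in full 2) for H12 against G4 at 0 h, 0 to 1 (in full 0) for auxin with retinoic acid against auxin. The log2 changes whose sign turned ranged from -0.02 to 0.87 for Cubn in E14 24 h against 0 h, -0.11 to 0.68 for Amn in E14 72 h against 0 h, -0.19 to 0.38 for Lrp2 in G4 74 h against 0 h, -0.06 to 0.54 for Amn in E3 74 h against 0 h and -1.14 to 0.45 for Cubn in E3 against G4 at 74 h. Samples that share a replicate number correlated over 0.1 in their deviations in 28 of 67 pairs in E14, 10 of 18 in SCC1-mAID and 180 of 420 in the clones (medians 0.07, 0.152 and 0.082), against 31 of 199, 4 of 36 and 28 of 420 for different numbers (medians -0.016, -0.085 and -0.082). Pairs with the same number were over 0.1 more often in every set, though not every such pair was. The main test did not pair samples by number, so spread shared within a number was not removed there. In the clones the 2 libraries of a group deviate in opposite directions by construction, so the medians mirror each other. With the replicate block the count of members called was 5 instead of 4 for E3 at 74 h (Lrp2 0.64, adjusted p = 0.00671) and 3 instead of 2 for E3 against G4 at 74 h (Dab2 -0.56, 0.0442), and was the same in the other comparisons. Under the size factors of the authors, the median change over all genes was 0.27 for E14 72 h against 0 h, 0.22 for 72 h against 48 h, 0.18 for retinoic acid in SCC1-mAID and -0.33 for auxin with retinoic acid against retinoic acid; they changed the sign of no called member. Depth limits Ttr and Apoa1, whose libraries hold at most 57 and 3 reads.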

Other observations

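The genes around Dab2 on chromosome 15 were lower in H12 before treatment. Of 41 tested genes within 5 Mb of Dab2, 2 were higher and 15 lower in H12 than in G4 at 0 h, with a median difference of -0.42 (log2), where 12% of all genes were called in either direction. Around Lrp2, the other member called at 0 h, 3 of 58 genes were higher and 6 lower, and around Cubn 2 of 38 were higher and 4 lower. At 74 h the same window around Dab2 held 8 lower and 0 higher genes for E3 against G4 (median -0.39) and 4 higher and 9 lower for H12 against G4. Around Amn at 74 h, 26 of 124 genes were higher and 10 lower in H12 than in G4 (median 0.44), where 12.4% of all genes were higher and 25.1% differed. Neighbouring genes are not independent, and no test was made of these counts.

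Across the 42 clone libraries the correlation of log2 levels was 0.954 for Cubn with Pdgfra, 0.855 for Cubn with Dab2, 0.671 for Cubn with Amn and 0.474 for Cubn with Lrp2; the libraries share clones and times, and no test was made.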
